A study of Homo sapiens and Mus musculus with 6 samples.

Results

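The promoters with the most contacts on their own chromosome were described in GM12878, a lymphoblastoid cell line made from human B lymphocytes. In Promoter Capture Hi-C (CHi-C) a bait is a HindIII restriction fragment that carries a promoter and was pulled out of a Hi-C library with RNA probes, and a call is a pair of a bait and another fragment, the other end, with a CHiCAGO score of at least 5. A call is cis when both fragments lie on 1 chromosome. Baits were chosen by their number of cis calls: those with at least 40 cis calls as bait were kept, unless a symbol of the bait began with HIST1H, the prefix of the large histone gene cluster. This left 139 baits of 15379 with any cis call, and 7296 of 92641 cis calls. Before the histone baits were set aside, 1.01% of all baits reached 40 cis calls. The 139 baits were 0.904% of the baits and held 7.88% of the cis calls. All values that follow from the number or the place of these calls describe the selected baits and were not tested.

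The study developed a statistical method for calling contacts in such data, and used untreated GM12878 cells and mouse embryonic stem cells (mESCs) as its examples. For GM12878, 3 biological replicates of formaldehyde-fixed cells were grown, cut with HindIII and captured, and the authors called contacts on the 3 together, so that 1 list of calls exists and the spread between replicates cannot be given. GM12878 is 1 cell line from 1 donor, carried in culture after transformation by Epstein-Barr virus, so the list describes that line and not B cells at large. All 56775 listed fragments were found as HindIII fragments of the hg19 genome. The label of promoter held for these baits: a start of a protein-coding gene lay in 89.2% of them and a start of any gene in 99.3%, against 77.3% and 97.2% of the other baits with a cis call.

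Chromosomes fold inside domains, within which fragments meet more often than across the borders, and a promoter can meet enhancers, other promoters and plain sequence of its domain. The protein CTCF binds a motif that has a direction, and loops held by cohesin usually join motifs that point towards each other. A call in CHi-C says that 2 fragments were ligated more often than the background at their distance would give, and says nothing of whether the contact changes transcription.

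Promoter windows are shown for 4 of the genes that gave selected baits their symbols, as examples of the captured class of sequence: RAPGEF2, next to DUSP5 in number of calls, GAPDH and CHD4, from the locus with the most selected baits, and IRF4, a transcription factor of B cells. The windows run from 250 bases before to 50 bases after the start of the gene, are taken from RefSeq (GRCh38.p14) and read 5′ to 3′ on the strand of the gene. They were matched to baits by symbol alone, and CHD4 is a symbol of 3 selected baits, so a window need not lie in each bait of that symbol. Capitals mark the GC box, GGGCGG or CCGCCC, searched on both strands without overlap. RAPGEF2 lies at chr4:159102829-159103128 on the plus strand, GAPDH at chr12:6535014-6535313 on the plus strand, CHD4 at chr12:6606402-6606701 on the minus strand and IRF4 at chr6:391502-391801 on the plus strand.
RAPGEF2: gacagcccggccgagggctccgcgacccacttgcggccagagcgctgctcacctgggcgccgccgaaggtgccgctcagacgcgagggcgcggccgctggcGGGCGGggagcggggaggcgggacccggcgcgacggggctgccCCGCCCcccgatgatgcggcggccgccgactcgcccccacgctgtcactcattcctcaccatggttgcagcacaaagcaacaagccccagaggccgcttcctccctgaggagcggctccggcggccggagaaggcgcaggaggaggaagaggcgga
GAPDH: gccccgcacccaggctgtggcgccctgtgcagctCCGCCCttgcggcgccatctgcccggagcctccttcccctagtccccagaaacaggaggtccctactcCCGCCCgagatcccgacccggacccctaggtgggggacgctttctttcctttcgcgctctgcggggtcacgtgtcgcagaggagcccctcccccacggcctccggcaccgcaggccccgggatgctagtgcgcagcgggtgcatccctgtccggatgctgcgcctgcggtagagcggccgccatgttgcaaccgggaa
CHD4: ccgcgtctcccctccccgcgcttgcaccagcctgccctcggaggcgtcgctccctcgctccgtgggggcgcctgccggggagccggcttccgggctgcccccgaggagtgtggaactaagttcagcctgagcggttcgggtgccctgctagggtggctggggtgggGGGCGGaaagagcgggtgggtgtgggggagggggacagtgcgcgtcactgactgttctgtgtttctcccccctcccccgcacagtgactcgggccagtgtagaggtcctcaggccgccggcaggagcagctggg
IRF4: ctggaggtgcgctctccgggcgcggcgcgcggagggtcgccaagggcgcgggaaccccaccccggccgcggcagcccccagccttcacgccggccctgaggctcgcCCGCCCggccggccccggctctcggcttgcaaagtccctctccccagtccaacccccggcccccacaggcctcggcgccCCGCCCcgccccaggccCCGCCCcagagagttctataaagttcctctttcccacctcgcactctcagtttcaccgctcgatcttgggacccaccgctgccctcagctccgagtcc

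These windows held 2 GC boxes in RAPGEF2, 2 in GAPDH, 1 in CHD4 and 3 in IRF4, and between 24 and 38 CpG pairs. For 103 of the 139 baits a window was found under a symbol of the bait, in all 120 windows. A GC box was present in 67.5% of the 120 (Wilson 95% interval 58.7 to 75.2), in 61.4% of 11041 windows of the other baits with a cis call (60.5 to 62.3) and in 43.4% of all 27305 windows. The motif TATAAA was present in 5.83%, 6.10% and 7.88% of them. On both counts the selected promoters were close to the promoters of the other baits.

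Stretches of 4 contacted fragments are shown because the direction of the CTCF motif at the other ends is described further on. They come from the 4 unbaited other ends with the highest scores, within 1 Mb of a selected bait, that held a match to the CTCF consensus in 1 direction, with 1 chromosome left out whose sequence is not shown. Each is 60 bases of hg19, read 5′ to 3′ on the strand of the match, with the 14 bases of the match in capitals. The stretch called by AMHR2 is chr12:53746535-53746594 on the plus strand, that of TIPARP chr3:156799658-156799717 on the minus strand, that of HOXC6/HOXC9 chr12:54608636-54608695 on the plus strand and that of CHD4/NOP2 chr12:6647187-6647246 on the minus strand.
AMHR2: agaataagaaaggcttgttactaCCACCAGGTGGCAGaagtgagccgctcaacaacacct
TIPARP: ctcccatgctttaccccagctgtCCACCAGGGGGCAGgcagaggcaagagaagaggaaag
HOXC6/HOXC9: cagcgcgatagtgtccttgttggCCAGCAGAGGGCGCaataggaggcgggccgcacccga
CHD4/NOP2: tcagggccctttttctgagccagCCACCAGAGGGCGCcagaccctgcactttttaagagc

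The match pointed towards the bait in the calls of AMHR2, at 73.4 kb with a score of 31.8 and 48 reads, and of TIPARP, at 410 kb with a score of 29.0 and 25 reads. It pointed away in the calls of HOXC6/HOXC9, at 209 kb with a score of 25.9 and 28 reads, and of CHD4/NOP2, at 26.6 kb with a score of 24.1 and 68 reads. The last of these fragments was called by 10 of the selected baits.

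Some baits stood apart and are named before the results that rest on them. In 13 of the 139 baits at least 1 call was longer than 1 Mb, 131 calls in all. Of these, 111 belonged to 3 baits. ADAM30, which codes for a membrane protein of the ADAM family, had 43 of its 56 calls at 24097 to 24681 kb, all in a block of 586 kb, and 22000 kb of the sequence between is unsequenced in hg19. MSMB, the gene of a protein of seminal plasma, had 35 of 46 calls beyond 1 Mb, at 3848 to 5894 kb, and DNAH3/TMEM159 had 33 of 63 at 1176 to 1544 kb. The far calls rested on fewer reads than the near ones, a median of 6 against 28 in ADAM30, 4 against 11 in MSMB and 10 against 23 in DNAH3/TMEM159. Without calls beyond 1 Mb these baits would have had 13, 11 and 30 cis calls and would not have been selected. The other 10 baits had 1 to 3 such calls each. The part of gaps, repeated sequence or rearrangement in these calls was not tested. DUSP22 was the only selected bait with calls to another chromosome, 50 calls beside its 52 cis calls.

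Read numbers moved with the selection. The calls of the selected baits had a median of 18 reads against 15 in all other baits, a median score of 7.83 against 6.55, and a score of at least 10 in 29.9% of cases against 15.0%. All other baits here means the 15240 baits outside the selection, the histone baits included. Summed over its calls, a selected bait had a median of 1095 reads, against 307 in the 2552 baits with 10 to 39 cis calls. This sum grows with the number of calls, which set the groups, so a higher sum follows from the selection. Per call, the baits with 10 to 39 cis calls had a median of 17 reads. The length of the bait did not follow the selection, with a median of 6799 bp against 6946 bp in the other baits. Whether more contacts or more reads per bait brought a bait past 40 calls cannot be told apart.

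Just inside the threshold lay 10 baits with 40 cis calls and 7 with 41, and just outside lay 13 with 39 and 14 with 38. The baits with 40 calls included FOS, a subunit of the AP-1 transcription factor, TXNIP, an inhibitor of thioredoxin, TIMELESS, a protein of the replication fork, and BATF3, a bZIP transcription factor of immune cells. With 41 calls came SIK3, a kinase related to AMPK, SF3B4, a splicing factor, and CERS6, a ceramide synthase. Left out at 39 calls were MIR155HG, the host gene of a microRNA of activated B cells, CHD7, a chromatin remodeller, and CRTC2, a coactivator of CREB. The spans of these ranged from 383 kb in MIR155HG to 631 kb in CRTC2, with 489 kb in CHD7. Others at 39 calls reached 898 kb in PRSS36 and 2358 kb in CYFIP1. Of the named baits just inside, SIK3 spanned 385 kb, SF3B4 407 kb, TIMELESS 494 kb, CERS6 590 kb and FOS 756 kb. BATF3 spanned 1291 kb and TXNIP 59697 kb. Also left out, at 38 calls, was the bait of CD4, GPR162 and LEPREL2, which lies among the selected baits around GAPDH and CHD4.

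The contacted domain of a selected bait was wide and densely filled. The contacted span, from the first to the last midpoint among the bait and its cis other ends, had a median of 691 kb (order-statistic 95% interval 659 to 752, quartiles 569 and 876). It was 371 kb (366 to 376) in all other baits and 527 kb (512 to 538) in those with 10 to 39 calls, and a bait with more calls has more chances of a wide span. With calls beyond 1 Mb left out, the median span of the selected baits was 672 kb (645 to 707). The quartiles of the call positions of a bait lay a median of 215 kb apart.

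The single calls were not longer than elsewhere. Their median distance was 157 kb (154 to 162), against 175 kb (174 to 177) for the calls of all other baits. Of the 7296 calls, 32.2% were shorter than 100 kb, 63.9% lay between 100 and 500 kb and 2.03% between 500 kb and 1 Mb. In the other baits the last class held 7.11%. A median of 32.1% of the HindIII fragments in the span was called (28.6 to 34.6), against 13.6% (13.2 to 14.0) in the baits with 10 to 39 calls. This share has the number of calls as its numerator, so a higher value follows in part from the selection. The longest unbroken run of called fragments, the bait included, had a median of 8 fragments against 3.

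PICALM, a clathrin assembly protein, had the narrowest span, 276 kb, in which 69.2% of the fragments were called. ACTR3, a subunit of the actin-nucleating Arp2/3 complex, came next with 328 kb and 54.4%, and DUSP22, a phosphatase of JNK signalling, had 340 kb and 53.1%. Among the wide spans, TXNIP had 59697 kb through 2 calls to neighbouring fragments at 59438 and 59442 kb. Within 1 Mb this bait spanned 650 kb. With far calls left out, the widest span was that of BATF3, 1291 kb, where 11.8% of the fragments were called.

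**Figure D1:**
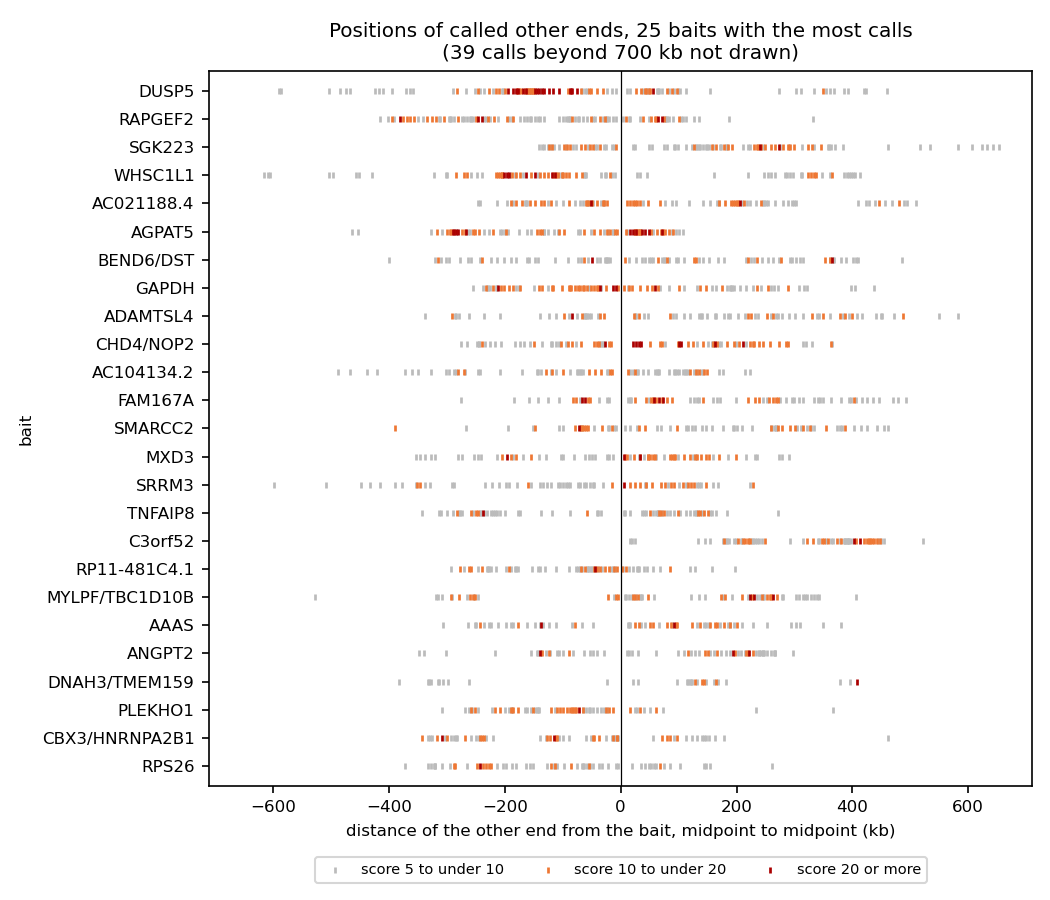
Positions of the called other ends of the 25 baits with the most cis calls, from DUSP5 at the top to RPS26. The horizontal axis gives the distance from the bait in kb, negative towards lower coordinates, each mark is a call and its colour gives the score class; 39 calls beyond 700 kb are not drawn. C3orf52 had no mark on the lower side, and the marks of DUSP5 with scores of 20 or more lay mostly at 80 to 200 kb on the lower side.

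DUSP5 had the most calls of all selected baits. The gene codes for a nuclear phosphatase that removes phosphate from ERK kinases. Its bait (chr10:112255134-112262944) had 110 cis calls, 72 towards lower and 38 towards higher coordinates, over 1050 kb. The longest unbroken run was 31 fragments, the longest of the 139 baits. The highest score was 55.5 on 64 reads, for chr10:112115824-112121155, a fragment of 5332 bp outside annotated genes at 141 kb. Its longest call, at 590 kb, reached a start of XPNPEP1, an aminopeptidase gene, with a score of 8.03 on 9 reads. Starts of 9 coding genes were contacted, among them MXI1, an antagonist of MYC, PDCD4, an inhibitor of translation, and SMC3, a cohesin subunit.

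RAPGEF2, which codes for an exchange factor that activates Rap1, had 99 calls over 747 kb, and 73 of them lay on the lower side, upstream of the gene. The fragment with the highest score, 35.0 on 33 reads, lay 246 kb upstream at chr4:159775157-159782643 and overlapped an exon. The gene is 257 kb long, and 25 of the calls fell inside it. SGK223, a pseudokinase gene now called PRAG1, had 96 calls, 68 of them on the higher side, and a highest score of 21.8 at 273 kb outside annotated genes.

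WHSC1L1, now NSD3, codes for a methyltransferase of histone H3 lysine 36. It had 90 calls over 1028 kb, of which 61 lay downstream, and its longest call, at 615 kb, reached a start of PLPBP. Calls of this bait reached starts of 9 coding genes, among them FGFR1, a growth factor receptor, ASH2L, a subunit of histone H3 lysine 4 methyltransferases, and BAG4, a cochaperone. AC021188.4, a bait named after a noncoding gene, had 88 calls over 755 kb and covered 49.4% of the fragments there. Its calls reached 13 coding starts, including DUSP2, a phosphatase of activated lymphocytes, and SNRNP200, a splicing helicase.

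AGPAT5, an acyltransferase of phospholipid synthesis, had 87 calls with a median score of 10.8, close to those of GAPDH (10.6) and CHD4/NOP2 (10.5), and a highest score of 32.6 on 24 reads at 290 kb in an intron. Without 2 calls at 4804 and 4837 kb, the longest of which ended at a start of BLK, a kinase of the B cell receptor pathway, its span was 570 kb. The bait of BEND6 and DST had 85 calls, and 52.9% of them lay inside these genes. DST codes for dystonin, a linker of the cytoskeleton, and the longer gene of this bait covers 497 kb. ADAMTSL4, which codes for a protein of the extracellular matrix, had 79 calls, 54 on the higher side, and reached starts of 22 coding genes, among them MCL1, a survival protein of the BCL2 family, and SETDB1, a histone methyltransferase.

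GAPDH, the glycolytic enzyme, and CHD4, the ATPase of the NuRD remodelling complex, lie close together on chromosome 12. The GAPDH bait (chr12:6641136-6645372) had 84 calls over 691 kb, 44 on the lower and 40 on the higher side, and called 70.0% of the fragments in that span, the largest share of the 139 baits. Starts of 33 coding genes were contacted, the most of any selected bait, including TNFRSF1A, a receptor of TNF, CD27, a receptor of memory B cells, and LAG3, an inhibitory receptor. Its highest score, 27.7 on 89 reads, was at 7.73 kb. The bait of CHD4 and NOP2 (chr12:6666582-6685049) had 78 calls and 68.4% of the fragments of its span, with a highest score of 42.4 on 96 reads for a fragment with a start of CHD4 at 31.6 kb.

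Further calls with the highest score or the greatest length of these first 10 baits lay in introns, exons or at gene starts. WHSC1L1 gave its highest score, 28.8 on 39 reads, in an intron at 197 kb, and AC021188.4 gave 27.0 on 37 reads in an exon at 206 kb. BEND6/DST gave 27.5 on 54 reads in an intron at 48.7 kb, and ADAMTSL4 gave 20.5 on 32 reads in an exon at 83.3 kb. None of the highest-scoring fragments of the 10 baits was itself baited. The longest calls lay at 415 kb in RAPGEF2, 653 kb in SGK223, 485 kb in BEND6/DST and 365 kb in CHD4/NOP2. At a gene start ended the longest calls of AC021188.4 (CNNM3, 509 kb), ADAMTSL4 (SEMA6C, 582 kb) and GAPDH (EMG1 and PHB2, a baited fragment at 438 kb). The scores of these longest calls were at most 9.91, on 4 to 13 reads.

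The next 15 baits had between 60 and 77 calls. Among them, FAM167A, next to BLK on chromosome 8, had 73 calls, SMARCC2, a subunit of the BAF remodelling complex, had 72, MXD3, a partner of MAX, had 70, and TNFAIP8, a TNF-induced survival gene, had 68. In MXD3 a run of 24 fragments was called without a break. SMARCC2 gave its highest score, 29.2 on 84 reads, at the baited start of ESYT1 and ZC3H10, 72.2 kb away, whereas TNFAIP8 gave its highest, 23.8 on 34 reads, in an intron at 238 kb. SRRM3, a splicing factor gene, also had 68 calls, C3orf52 66, RP11-481C4.1 65, and MYLPF/TBC1D10B, AAAS and ANGPT2 64 each. ANGPT2 codes for a ligand of the TIE2 receptor, AAAS for a protein of the nuclear pore and MYLPF for a myosin light chain of fast muscle. PLEKHO1, CBX3/HNRNPA2B1 and RPS26 had 60 calls each; CBX3 codes for a heterochromatin protein and RPS26 for a ribosomal protein. The remaining baits of this set were AC104134.2 with 77 calls and DNAH3/TMEM159 with 63. The other 114 baits had 40 to 59 calls.

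Most selected baits called fragments on both sides, with one side fuller. The fuller side held a median of 73.8% of the calls of a bait (70.0 to 77.6), against 81.2% (80.0 to 81.8) in baits with 10 to 39 calls. The share on the fuller side falls by chance alone as calls grow in number, so these groups, which were set by that number, cannot be compared by it. At least 90% of the calls lay on 1 side in 23 baits (16.5%), and in 31 baits (22.3%) the fuller side held at most 60%. The most even were ZNF384, a zinc finger transcription factor, and CECR2, a bromodomain protein, each with 21 calls on either side.

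In 6 baits every cis call lay on the same side. C3orf52, an open reading frame, had 66 calls, all at higher coordinates and downstream. NUDT4, a pyrophosphatase of inositol phosphates, had 42 upstream calls, and was the only selected bait that contacted no start of a coding gene. SMNDC1, a splicing factor gene, had 42 calls and TSPAN1, a tetraspanin gene, had 44, all upstream. PIEZO2, the channel of mechanical sensing, had 42 calls, all downstream, and 95.2% lay inside the gene, which is 483 kb long. SIK3 had 41 downstream calls, 61% of them inside the gene.

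**Figure D2:**
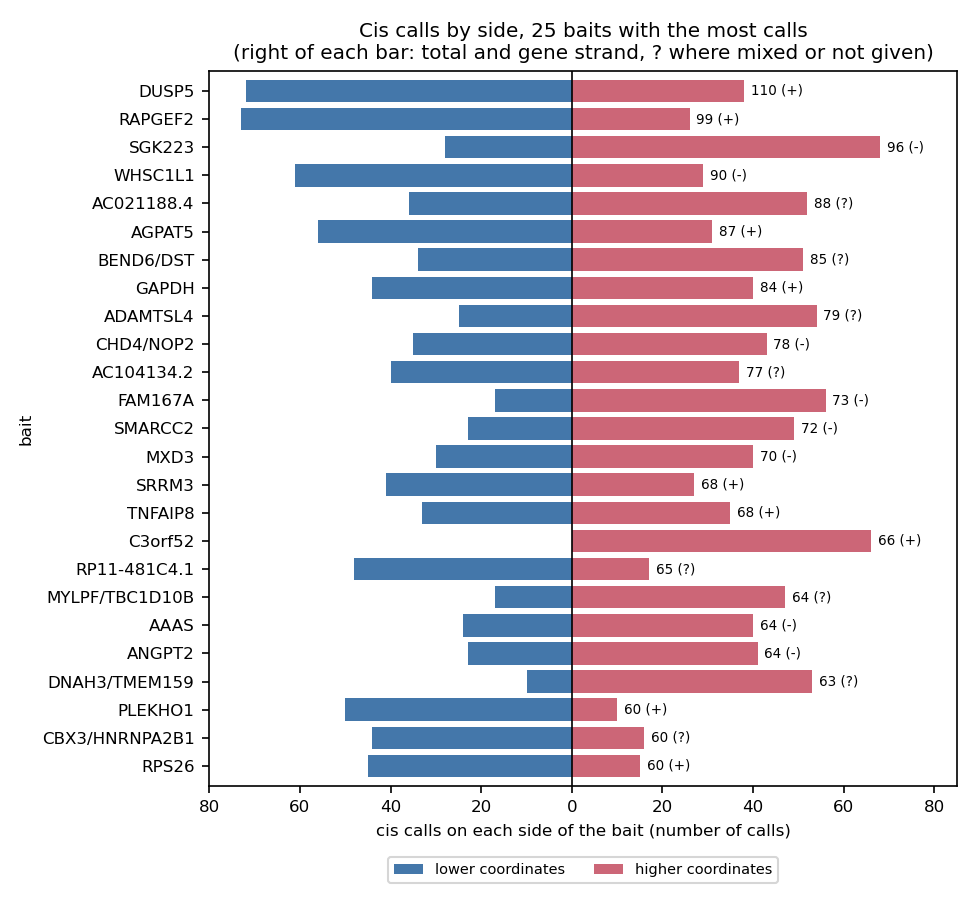
Number of cis calls at lower and at higher coordinates for the 25 baits with the most calls. Bars give counts of calls, and the label at the right of each bar gives the total and the strand of the gene, with a question mark where it is mixed or not given; C3orf52 had 0 calls below and 66 above, and GAPDH had 44 below and 40 above.

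By the strand of the gene, upstream calls were the more frequent. A single strand was known for 110 baits with 5699 calls, of which 45.3% lay downstream (44 to 46.6). The share was 50.4% (50.0 to 50.8) in 11079 other baits and 50.4% in the 1887 stranded baits with 10 to 39 calls. Over baits, the median downstream share was 43.0% against 50.0%, and 42 of 110 selected baits (38.2%) had most of their calls downstream, against 46.0% of the others. The intervals cover counting error alone, and calls of 1 bait or of neighbouring baits are not independent.

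Calls into the gene of the bait itself were as frequent as elsewhere, 9.10% of the calls (8.46 to 9.78) against 8.87% (8.68 to 9.06). They were spread unevenly, with a median of 2.27% per bait. The genes with the highest shares were long: 95.2% in PIEZO2, 73.2% in CERS6 (319 kb), 70.2% in TRIO, a guanine nucleotide exchange factor (389 kb), 64.6% in PIP5K1B, a lipid kinase (304 kb), and 61% in SIK3 (255 kb). The genes of the selected baits were not longer as a set, with a median of 17.4 kb against 26.1 kb.

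Targets were shared mainly among neighbours. The 7296 calls fell on 5230 different other ends, of which 1258, or 24.1% (22.9 to 25.2), were contacted by 2 or more selected baits, and these shared ends took 45.6% of the calls. Over all baits with a cis call, 18051 of 49201 other ends (36.7%) were contacted by 2 or more baits, a share that rests on many more baits. Baits that shared an other end or called each other were joined, which gave 76 loci. Of these, 48 held a single bait, such as BEND6/DST and TNFAIP8, and 28 held the other 91 baits. Of the pairs of selected baits, 138 shared an other end and 105 had a call between them, 89 of these from both ends. Chromosome 12 held 24 of the selected baits, or 2.68% of its 897 baits with a cis call. Chromosome 1 held 19 (1.07% of 1772) and chromosome 5 held 15 (1.96% of 767), against 0.904% over all baits.

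The largest locus lay around GAPDH and CHD4. It held 10 baits, named for TAPBPL, GAPDH, IFFO1, CHD4/NOP2, CHD4, CHD4/LPAR5, ACRBP, ACRBP/ING4, ING4 and ZNF384, in 917 kb of chromosome 12. Their 569 calls fell on 109 fragments, 66.9% of the 163 fragments in the stretch, and 88.1% of the 109 were called by 2 or more of the baits. All 45 pairs shared at least 1 other end and 36 had a call between them. GAPDH and CHD4/NOP2 shared 63 other ends, the most of any pair, which was 75% of the ends of GAPDH and 80.8% of those of CHD4/NOP2. The next pairs were CHD4/NOP2 with ACRBP/ING4 (51 shared), ACRBP (50) and IFFO1 (49), and ACRBP/ING4 with ACRBP (48). IFFO1 codes for a protein of the intermediate filament type, ACRBP for a sperm protein and ING4 for a reader of histone H3 methylation. The neighbouring baits that shared fragments thus carried symbols of genes of unlike roles.

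**Figure D3:**
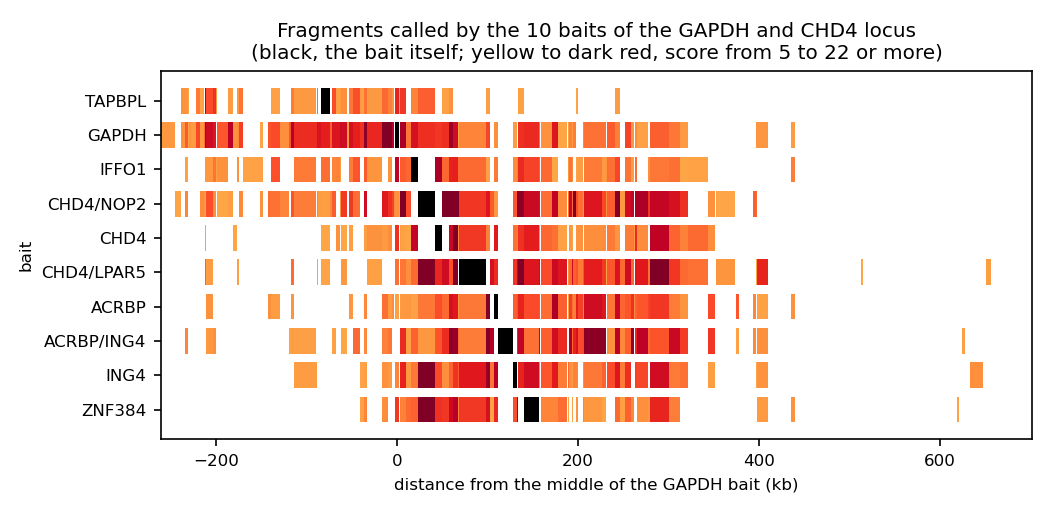
Fragments called by the 10 baits of the GAPDH and CHD4 locus, with the distance from the middle of the GAPDH bait in kb on the horizontal axis and a row per bait. Coloured blocks are called fragments drawn to scale, from yellow to dark red with rising score, and black blocks are the baits; blocks stack in the same columns in most rows, and 63 fragments were called by at least 5 of the 10 baits.

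The 5 other ends contacted by the most selected baits all lay in this locus. A fragment with a start of CHD4 (chr12:6700504-6704539), one with a start of LAG3 (chr12:6883919-6889462) and one with a start of a noncoding gene (chr12:6645917-6652528) were each contacted by all 10 baits. The next were the adjoining fragment of CHD4 (chr12:6704540-6710289) and one with a start of LPAR5, a receptor of lysophosphatidic acid (chr12:6741804-6746001), contacted by 9 each. None of the 5 was itself baited. Over all baits with a cis call, selected or not, they were contacted by 15 to 20.

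The other loci of several baits held 2 to 6 of them. On chromosome 12, RPS26, RP11-603J24.6, MYL6B/MYL6, SMARCC2, NABP2/SLC39A5 and TIMELESS placed 318 calls on 140 fragments, of which 56.4% were shared, and SMARCC2 and NABP2/SLC39A5 had 43 in common. Also on chromosome 12, PFDN5, AAAS, AMHR2, ATP5G2 and HOXC6/HOXC9 placed 256 calls on 153 fragments, 45.1% shared. On chromosome 1, HIST2H2BE, SF3B4, MTMR11, VPS45, PLEKHO1 and ADAMTSL4 shared 40.9% of 154 fragments over 1326 kb, and PLEKHO1 and MTMR11, 209 kb apart, had 37 in common. Another locus of chromosome 1, with GATAD2B, DENND4B, RAB13/RPS27 and a snoU13 gene, shared 64.4% of 90 fragments, and all 6 pairs had a call between them. GATAD2B codes, like CHD4, for a subunit of NuRD.

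On chromosome 2, DUSP2, CIAO1/TMEM127, AC021188.4 and CNNM4 shared 67.2% of 119 fragments. On chromosome 5, NSD1, another methyltransferase of histone H3 lysine 36, PRELID1/RAB24 and MXD3 shared 60.5% of 86, and the call of NSD1 with the highest score, 25.9 on 55 reads, was the MXD3 bait at 181 kb. On chromosome 14, CCNB1IP1, TEP1 and ANG/RNASE4 shared 66.7% of 75 fragments. The 6 baits of chromosome 8 from ANGPT2 to RP11-148O21.3 were joined over 5772 kb only by single shared ends: AGPAT5 and ANGPT2 had 44 other ends in common, SGK223 and CLDN23 had 32, FAM167A and RP11-148O21.3 had 31, and no pair across these 3 had more than 1. ADAM30 and RNU2-38P shared 33 other ends although 24507 kb apart in hg19, and called each other.

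Several one-sided baits had calls that ran towards a second selected bait. SMNDC1, with all calls on the higher side, shared 29 other ends with DUSP5, 195 kb away, which was 69.0% of its own and 26.4% of those of DUSP5. PPID, a cyclophilin gene, had 55 of 56 calls on the higher side and shared 31 other ends with RAPGEF2 at 380 kb, 55.4% and 31.3% of each. C3orf52 and CD200, the gene of an inhibitory surface protein of B cells, lay 220 kb apart and shared 38, 57.6% and 69.1% of each, and the highest score of CD200, 25.3 on 52 reads, was the C3orf52 bait. IRF4 had 36 of 45 calls on the lower side, towards DUSP22 at 100 kb, and shared 33 other ends with it, 73.3% and 63.5% of each. The highest score of both IRF4, 35.7 on 54 reads, and DUSP22, 38.6 on 78 reads, was the same unbaited fragment outside genes, chr6:230419-232603. In each of these pairs at least 1 bait called the other.

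Genes of B cell regulation were present. The gene lists were chosen with earlier results of these data known. On the list of B cell transcription factors, 4 of 54 baits with a cis call were selected: ETS1, IRF4, PRDM1 and BATF3. Over all baits with a cis call, 0.904% were selected, and no list was tested. The baits of that list had a median of 5.5 cis calls, against 3 over all baits. ETS1, an ETS factor of lymphocytes, had 52 calls, 46 of them downstream, none to a baited fragment, and a highest score of 20.7 at 285 kb outside genes. PRDM1, which drives plasma cell differentiation, had 43 calls over 901 kb, 34 on the lower side, with its highest score of 17.2 at 656 kb in an intron. IRF4 was described above, and BATF3 had 40 calls with a highest score of 21.4 at 297 kb in an exon.

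Of the list for B cell receptor and NF-kB signalling, 4 of 73 baits were selected, DUSP5, DUSP22, DUSP2 and TRAF1. The share over all baits was 0.904%, and the baits of the list had a median of 7 cis calls. TRAF1, an adaptor of TNF receptors, had 53 calls, 36 downstream, and a highest score of 22.4 at 42.6 kb in an intron. HLA-DOB was the only selected bait of 33 on the list of MHC and antigen presentation. This gene of a binding partner of HLA-DM in B cells had 47 calls over 1105 kb, 39 of them on the lower side. Its highest score, 22.2 on 37 reads, was at 387 kb outside genes. CD200 was the only one of 49 surface proteins of B cells, and IRF4 the only one of 16 interferon regulatory factors and STATs, whose median was 10.5 cis calls. Genes outside these lists, named after their calls had been seen, included BIRC2, an inhibitor of apoptosis with 58 calls, 52 of them downstream, and CD47, a signal against phagocytosis with 57 calls, 53 of them upstream.

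Baits of genes of other kinds were selected as well. Protocadherins, adhesion proteins of neurons encoded in tandem, gave 4 of 44 baits, and the 44 had a median of 16 cis calls, the highest of the lists. PCDHA3 had 47 of 48 calls on the higher side, towards the PCDHB baits, with which it shared 26 to 30 other ends each at 369 to 387 kb. PCDHB7, PCDHB16 and PCDHB10/PCDHB9 had 51 or 52 calls and between 17 and 21 calls to baited fragments. MB, the myoglobin gene of muscle, had 42 calls, OCLN, a tight junction protein, had 45, and CCL24, a chemokine and the only selected bait of 154 on the list of cytokines, chemokines and their receptors, had 47. No bait was selected from 218 olfactory receptor baits, 95 keratin baits, 60 baits of actin, adhesion and migration genes or 41 of neuronal adhesion, synapse and channel genes. Cytosolic ribosomal proteins gave 3 of 84, RPS26, RPL23A and RAB13/RPS27, ZNF genes 2 of 287 small nuclear and nucleolar RNA genes 11 of 1801, microRNA genes 3 of 431, HOX clusters 1 of 36 and genes with names of long noncoding RNAs 34 of 4163. The share over all baits before the histone exclusion was 1.01%, as given above, and no list was tested.

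Genes of chromatin, named after their calls had been seen, were CHD4, GATAD2B, SMARCC2, WHSC1L1, NSD1, CBX3, ING4, EED, a subunit of the Polycomb complex, JADE2, a subunit of histone acetyltransferases, and HMGN4, a nucleosome-binding protein. Chromatin genes were not counted over all baits, so these names give no share and show no excess. CHD4 and ING4 lie in the same locus. EED had 53 calls, 42 on the lower side, and shared 26 of them with PICALM. JADE2 had 45 of 47 calls on the lower side. HMGN4 had 42 calls, 37 of them upstream, and 11 to baited fragments. Its call with the most reads, 44, went to the baited fragment of HIST1H4H, 250 kb upstream. That symbol carries the prefix of the histone cluster set aside here, and starts of further histone genes were contacted.

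Contacts with other promoters made up a smaller share of the pooled calls than in the other baits, as a description without a test. Baited other ends took 12.5% of the calls (11.8 to 13.3), against 28.8% (28.5 to 29.1) in all other baits and 20.2% (19.8 to 20.6) in those with 10 to 39 calls. The share has the number of calls, which set the groups, as its denominator, so a lower value can follow from the selection. When any other end listed with a symbol was counted as baited, the shares were 12.5%, 31.0% and 20.6%. In the authors' browser list, where a pair counted for each of its baits, the levels were higher throughout: 17.9% (17.1 to 18.8) for the same 139 baits, 21.3% (20.6 to 22.1) for the 211 that reached 40 calls there, 40.6% (40.3 to 40.9) for all others and 32.7% (32.3 to 33.1) for those with 10 to 39. In each 100 kb class up to 600 kb the share was lower in the selected baits, from 10.5% to 17.8% against 27.4% to 30.7%. Single baits ranged from 0 to 45.8%, with a median of 9.52% (7.32 to 13). The median was 16.7% (14.3 to 16.7) in all other baits and 10% (10 to 11.1) in those with 10 to 39 calls. By this median per bait, the selected baits were close to those with 10 to 39 calls. PCDHA3 (22 of 48 calls), PCDHB16 (21 of 52) and GAPDH (24 of 84) called many baited fragments, whereas 9 baits, among them ETS1, PIEZO2, NUDT4, MB and CECR2, called none. As other ends of further baits, the selected baits were themselves called by a median of 8 baits. The median was 3 for baits with 10 to 39 calls and 1 for all other baits. Of the 105 pairs of selected baits with a call, 89 were called from both ends, so this number is not separate from the selection.

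**Figure D4:**
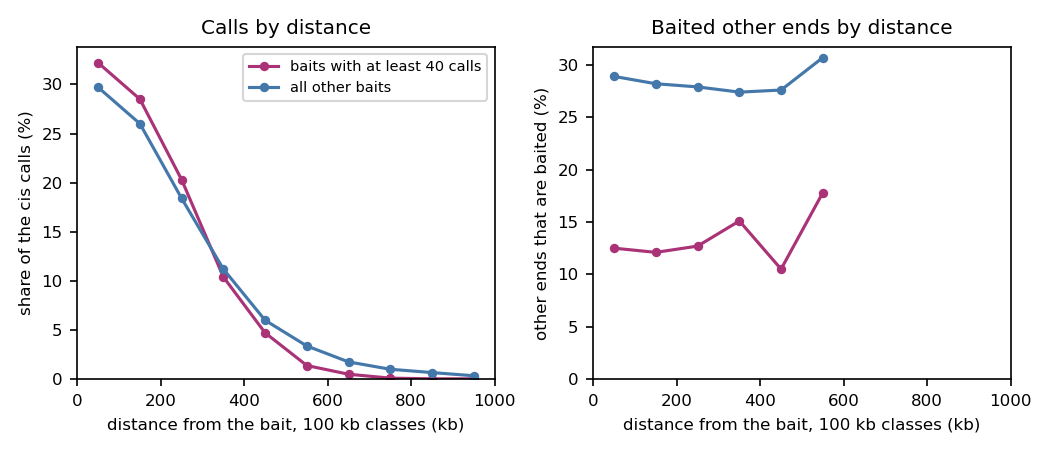
Left, share of the cis calls in each class of 100 kb, and right, share of baited other ends in the classes up to 600 kb, in %, for the 139 selected baits and for all other baits. The selected baits had a larger share of calls below 300 kb, 32.2%, 28.5% and 20.3% in the first classes, and a smaller share of baited other ends in each class drawn.

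Length and sequence of the unbaited other ends were set beside those of the fragments between them, without a test. The 4699 unbaited other ends without gaps had a median length of 3690 bp, a GC content of 43.6% and 12.5 CpG pairs per kb. The 24535 unbaited fragments inside the same spans that no selected bait called were shorter, 1984 bp, with 41.2% GC and 9.58 CpG pairs per kb. A start of a coding gene lay in 16.3% of the called and 5.68% of the uncalled fragments, and longer fragments hold more of everything. The CTCF consensus, counted per length, occurred 0.337 times per 100 kb in the called fragments, 0.174 times in the uncalled ones, and 0.189 times in all fragments of the genome. Over the unbaited other ends of all baits it occurred 0.501 times.

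The direction of the consensus relative to the bait was closer to even at the contacts of the selected baits, a difference that was not tested. Of their calls to unbaited fragments, 108 had a match in 1 direction only, on 69 fragments and from 81 baits. It pointed towards the bait in 61 and away in 47, or 56.5% towards (47.1 to 65.4). For all other baits it pointed towards the bait in 1461 of 1957 such calls, 74.7% (72.7 to 76.5), and for baits with 10 to 39 calls in 657 of 936, 70.2% (67.2 to 73.0). The same fragment could count for several baits, so the intervals are too narrow, and binding of CTCF was not measured here. The fragment chr12:6645917-6652528 of the GAPDH and CHD4 locus alone counted for 10 of the 108 calls. Its match pointed away from all of these baits but TAPBPL and GAPDH, which lowered the share of 56.5%.

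**Figure D5:**
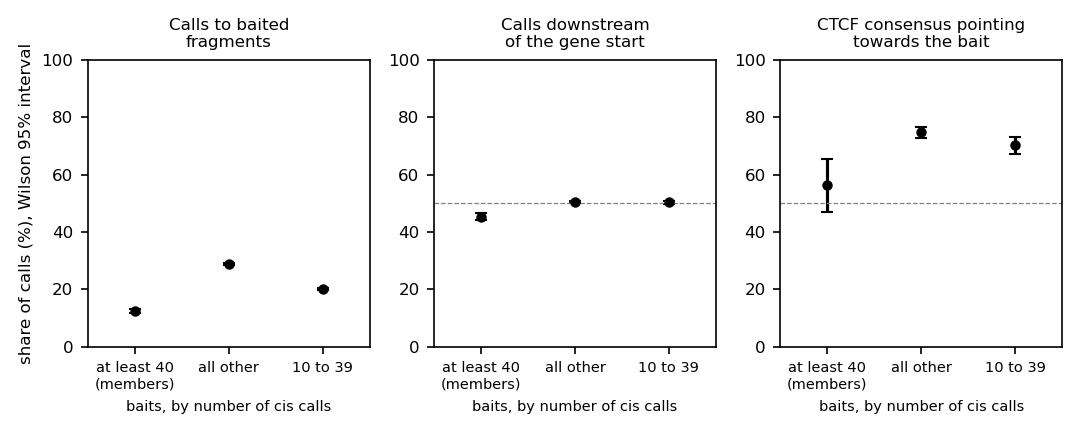
Shares of calls in %, with Wilson 95% intervals that cover counting error alone, for the 139 selected baits, all other baits and the 2552 baits with 10 to 39 cis calls. From left to right, baited other ends (12.5%, 28.8% and 20.2%), calls downstream of the start (45.3%, 50.4% and 50.4%), and CTCF matches that pointed towards the bait (56.5%, 74.7% and 70.2%); the dashed line in the last pair of panels marks 50%.

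In mESCs, 97 of the 139 baits had a bait with a cis call under the same symbol. Where several mESC baits carried the symbol the one with the most calls was taken, so baits of 1 human gene, such as the 3 of CHD4, share a mouse value. These mESC baits had a median of 8 cis calls (quartiles 3 and 15), against 4 (2 and 9) for the 7736 other GM12878 baits that could be matched. At least 40 cis calls were found in mESCs for 3 of the 97: GAPDH with 62, HOXC6/HOXC9 with 54 and DPH1/HIC1/OVCA2 with 41. This was 3.09%, against 121 (1.56%) of the 7736 other matched baits and 178 (1.10%) of all 16178 mESC baits with a cis call, and was not tested. CHD4 had 37 and DUSP5 15, while RAPGEF2 had 11. Of the B cell factors, IRF4 had 6, PRDM1 5, ETS1 2 and BATF3 1. The lists of the cell types were called separately at different depth, so the numbers were set side by side and not compared gene by gene.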

How the data were processed

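Promoter CHi-C was analysed from 3 biological replicates of GM12878 and, for matched genes, 2 of mESCs. The authors mapped read pairs with HiCUP (Bowtie 1.1.0 in the submitters' processing notes; hg19 for GM12878 and mm9 for mESCs), removed artefacts and duplicates, and called contacts with CHiCAGO on all replicates of a cell type together. The deposited list gives, per call, a read number, which is no raw count but the authors' rounded combination of replicates weighted by size factors, and the CHiCAGO score, a weighted and transformed p-value listed from 5 upward. No test across replicates was therefore possible, and values are descriptions with Wilson or order-statistic 95% intervals that cover counting error only. The deposited browser list, which gives the authors' score and each pair once, served as an alternative. The Hi-C files and the mESC browser list were not used.

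Fragments were matched to a HindIII digest of hg19, genes to GENCODE v44lift37, and old symbols to RefSeq synonyms. An other end counted as baited when it was itself the bait of a call or carried the symbol of one. Named were the 25 baits with the most calls, those at 38 to 41 calls, the extremes of span and side, the 5 most shared other ends and the 5 pairs with most shared ends, and members of the gene lists; 1 bait that this rule names is not reported here. The baits, lists and measures were chosen with earlier results of these data known. Scripts ran in Python 3.11.15 with pandas and SciPy and were tested on simulated data.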

Additional observations from a re-analysis of the deposited data

Results flagged for a closer look

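DUSP22 was marked because it had calls in data that the comparisons of cis calls do not use. The bait had 50 calls to another chromosome beside its 52 cis calls, and the other selected baits had none. All 50 lay on chromosome 16, between chr16:32323372 and chr16:33613996 in hg19, a stretch of 1291 kb. They rested on a median of 5 reads (3 to 18) and had a median score of 14.9 (6.43 to 90.3). In the whole list, 288 calls of 42 baits joined different chromosomes, and 3 baits had 50 or more. What brought these calls about was not tested.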

How the results depend on the processing

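No paired analysis was possible because the replicates were called together. Of 59 values recomputed under another setting, 36 stayed within the interval of the reported value (numbers of baits: within 1.5 times) and 23 moved. With a score of at least 10, 4 baits met the rule; with their calls so restricted, the 139 baits had a median span of 375 kb and distance of 137 kb, 82.8% on the fuller side, 18.1% of ends shared, 13.7% of calls to baited fragments and 17.0% of the span called. With at least 10 reads these were 614 kb, 145 kb, 13.3% baited and 34.7% of the span called. The browser list gave 211 baits, among them the 139, with 27.0% of ends shared, 21.3% baited and 7.97% in the own gene. At least 30 cis calls gave 332 baits, a span of 649 kb and 26.9% called. At least 50 gave 64 baits, 68.2% on the fuller side, 14.3% shared and 36.8% called. Between nearest fragment ends the distance was 151 kb. The settings chosen after seeing the data (calls within 1 Mb, without ADAM30, MSMB and DNAH3/TMEM159, any symbol as baited) moved none of the values recomputed under them. Calls rest on few reads, and a missing call is no evidence of a missing contact.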
